A study of Mus musculus with 380 samples.

Results

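The cells described here are the thymic epithelial cells (TECs) of 4-week-old mice (postnatal day (P) 28) in which *Psmb11* was detected above a set level, compared between *Foxn1-Fgf7* transgenic and wild-type mice. A cell was a member if it had 1500 or more transcripts and if *Psmb11* made up 2 or more of every 10,000 of them, with mitochondrial genes, spike-ins and *Hprt* left out. The members were thus chosen by their measured *Psmb11* values, so *Psmb11* and the number of members are given as a description, without a test. In all, 3088 of 14918 P28 cells of unsorted libraries were members, 1312 of wild type and 1776 of transgenic origin, out of 25974 cells of that depth in the 380 libraries of the whole series.

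*Psmb11* encodes a catalytic subunit of the thymoproteasome, which is made in the cortex of the thymus and cuts the peptides on which CD8 T cells are selected. Cortical TECs (cTECs) express it together with *Prss16*, *Ctsl* and the thymocyte attractants *Ccl25* and *Cxcl12*, under the control of the transcription factor *Foxn1*. *Fgf7*, also called keratinocyte growth factor, is normally secreted by mesenchymal cells and binds a splice form of *Fgfr2* on epithelial cells, from which the signal runs through MEK and ERK kinases to ETS transcription factors such as *Etv1*, *Etv4* and *Etv5* and to feedback inhibitors of the Sprouty and dual-specificity phosphatase families.

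TECs had been purified as EpCAM+ CD45- cells and sequenced singly by CEL-Seq2, which counts the 3′ ends of transcripts by molecular barcodes, in libraries of up to 96 cells. In the transgenic mice an *Fgf7* cDNA was expressed from the *Foxn1* promoter, so that TECs made the ligand themselves; counted transcripts do not tell the transgene from the gene of the mouse. There were 2 library protocols. Barcoded mice of both genotypes carried in addition a guide RNA against *Hprt* under the human U6 promoter, *Foxn1-cre* and a Cre-dependent Cas9-EYFP in *Rosa26*, and part of the volume of each well went into the transcriptome. They were a wild-type male (80 libraries), wild-type females A (24 libraries) and B (36 libraries) and a transgenic female (44 libraries). Females A and B are labelled as individuals, while the male and the transgenic female are labelled by sex alone and were each taken as 1 mouse. The genotype label of the 44 transgenic libraries names the *Fgf7* transgene, but their free-text label calls the cells wild type; the genotype label was used, and the *Fgf7* level given below bears on it directly. Non-barcoded libraries came from a wild-type male (16 libraries), from wild-type cells labelled Biological Replicate (4 libraries) and from transgenic male cells (12 libraries) whose number of mice is not given in the sources used here. *Foxn1-Fgf7* is an FVB/N line. The strain label of the non-barcoded transgenic libraries gives FVB/N bred back to C57BL/6J, and that of all other libraries used here, the barcoded transgenic ones included, C57BL/6. Each genotype was therefore compared within a protocol, with 1 transgenic and 3 wild-type units among barcoded libraries and 1 transgenic and 2 wild-type units among non-barcoded libraries. Here a unit is a mouse or a labelled set of libraries, and p-values measure the spread between these units. With 1 transgenic unit per protocol, p-values within a protocol and for the difference between protocols rest on the spread among wild-type units only. Levels are given as CPM, the transcripts of a gene in the summed members of a unit per 1000000 transcripts. In such sums a larger share of cells with a gene and more of its transcripts per cell cannot be told apart.

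The units differed in depth and in what else their members held. The members of a unit had 424267 to 19863895 transcripts in all, and their median was 10277 transcripts in the transgenic barcoded female, 4591 to 5187 in the wild-type barcoded mice and 7712 to 8975 in the non-barcoded units. The cells labelled Biological Replicate stood apart. They are labelled male, but *Xist* was at 445.5 CPM in their 46 members and *Ddx3y* at 0 CPM. Their *Prss16* was at 844 CPM against 3580 to 6085 CPM in the other units, and the listed markers of tuft cells summed to 1264 CPM, against 49.8 to 229 CPM elsewhere. Results are therefore also given without these libraries. *Epcam*, which marks epithelial cells, lay between 176 and 264.3 CPM in all 7 units, and 11 listed fibroblast markers summed to 101.7 to 410.4 CPM (*Pdgfra* at no more than 4.47 CPM). Predicted genes (named Gm with a number, or with Rik) took 33.5%, 34.9% and 27.6% of the transcripts of non-barcoded members, against 6.02% to 11.96% in barcoded ones, and *Gm10800* alone 21.2%, 20.9% and 19.2% against 0.907% to 4.73%. They enter the totals behind the threshold and behind CPM. With predicted genes left out of both, a choice made after seeing the data, members made up 17.4%, 27.6% and 13.6% of the cells of the non-barcoded wild-type male, the Biological Replicate libraries and the transgenic cells, so that the transgenic share was below both wild-type shares, and 10.7%, 13.7% and 22.1% of those of the wild-type barcoded male and females A and B and 53.3% of those of the transgenic one. No 2 cells had the same values.

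Members made up 9.83%, 13.1% and 20.99% of the cells of the wild-type barcoded male and females A and B, and 51.7% of the cells of the transgenic barcoded female. In non-barcoded libraries they made up 6.16% of the wild-type male, 16.9% of the Biological Replicate libraries and 9.10% of the transgenic male cells. The transgenic unit was thus the highest among barcoded units and lay between the wild-type units among non-barcoded ones. Cells thinned to 1000 transcripts gave 6.57%, 8.57% and 13.1% of wild-type barcoded cells with 1 or more *Psmb11* transcripts against 33.7% of transgenic ones, and 4.76% and 8.49% against 5.14% in non-barcoded libraries.

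Cells that should lack *Psmb11* passed the threshold as well. Cells with markers of tuft cells, a medullary cell type, did so in 12 of 95, 6 of 66 and 14 of 56 cases in the wild-type barcoded mice, the first 2 being 12.6% and 9.09%. In the transgenic barcoded female it was 5 of 14 tuft marker cells (35.7%), and in the non-barcoded units 5.61%, 26.7% and 11.4%. The median depth of the tuft marker cells was 4190 to 16350 transcripts per unit and that of all kept cells 4728 to 12834. The exact 95% interval of the share among tuft marker cells held the share of members in all 7 units, the transgenic barcoded female included (12.8% to 64.9%). After thinning, 8.70%, 7.69% and 12.7% of tuft marker cells of the wild-type barcoded mice, 38.5% (5 of 13) of those of the transgenic one, and 3.57%, 13.3% and 2.86% in the non-barcoded units had a *Psmb11* transcript. Members at the low end of *Psmb11* cannot be told from cells that hold it from free RNA or from a further cell in the well, neither of which was tested. At 10 or more per 10,000 the shares were 2.68%, 3.41% and 6.19% in the wild-type barcoded mice and 22.98% in the transgenic one, and 1.13%, 1.84% and 2.18% in the non-barcoded units in the order above. The tuft marker cells over this limit numbered 1, 1, 5 and 2 in the barcoded units and 2, 1 and 0 in the others.

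**Figure D1:**
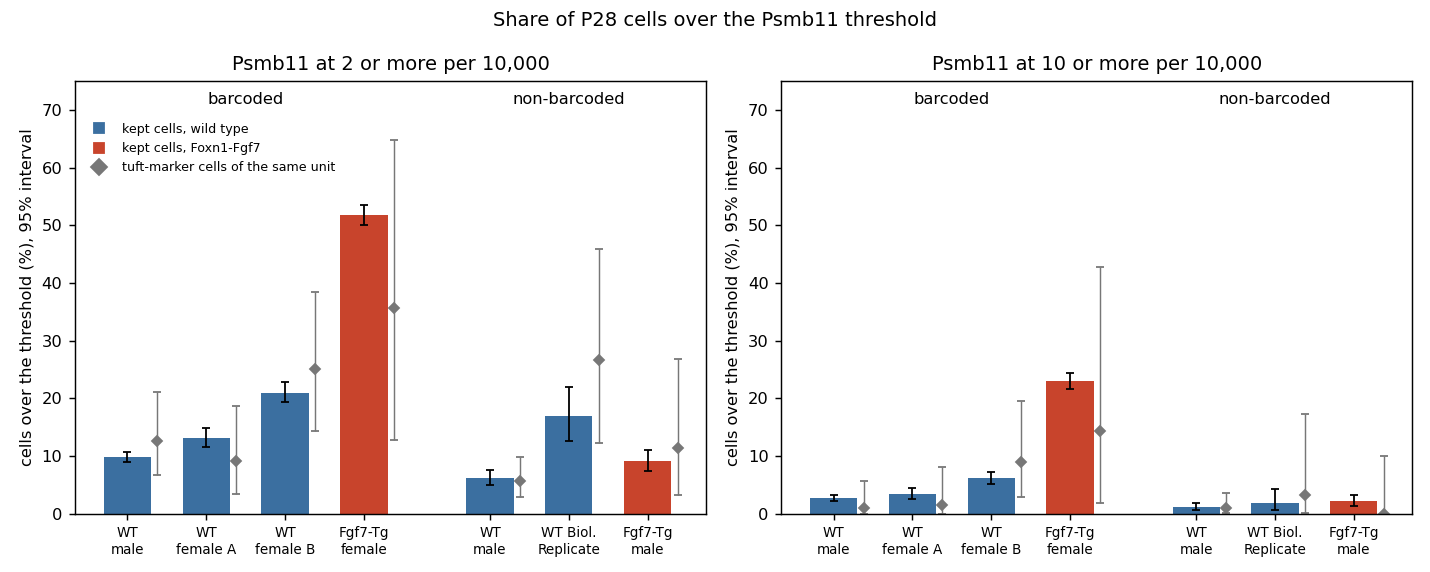
Share of P28 cells (%) over the *Psmb11* threshold in each unit, at 2 or more per 10,000 (left) and 10 or more per 10,000 (right), with exact 95% binomial intervals, which cover counting error only. Grey diamonds give the same share among tuft marker cells of the unit; the transgenic barcoded female stands at 51.7% and 22.98%, above the other units, and the intervals of its 14 tuft marker cells (12.8% to 64.9% and 1.78% to 42.8%) hold both values.

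The level of *Psmb11* in the members was 1272, 1297 and 1672 CPM in the wild-type barcoded mice and 1494 CPM in the transgenic one, and 1049 CPM, 556.99 CPM and 1032 CPM in the non-barcoded wild-type male, the Biological Replicate libraries and the transgenic cells. A single *Psmb11* transcript was the basis of membership in 50.98% to 53.8% of the wild-type barcoded members and in 19.5% of the transgenic ones. In the non-barcoded members it was 28.7%, 30.4% and 38.5%. Because 1 transcript reaches 2 per 10,000 only in cells of low depth, these shares depend on depth. The median was 4591 to 5187 transcripts in wild-type barcoded members and 10277 in transgenic barcoded ones. In the transgenic barcoded female, 150 cells lay just outside the threshold (1.5 to 2 per 10,000) and 135 just inside (2 to 2.5 per 10,000), with *Prss16* at 1291 CPM and 1489 CPM. In the wild-type barcoded male the 64 cells just outside and the 49 just inside had *Prss16* at 887 CPM and 1100 CPM, and over all units 13 to 135 cells lay just inside. Cells on both sides of the threshold thus held little *Prss16* compared with the members as a whole.

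*Fgf7* (chr2:126034658-126091185, build GRCm38.p6 as all coordinates here) was close to absent from wild-type members and abundant in transgenic ones, which checks the labels. It was counted 4, 0 and 0 times in the wild-type barcoded mice (1.13, 0 and 0 CPM) and 2264 times in the transgenic one (131 CPM). In non-barcoded libraries it was counted 1 and 0 times in wild-type members (1.12 and 0 CPM) and 92 times in transgenic members (99.5 CPM). Set against the summed wild-type members, this is a ratio of 259 (95% interval from counting 101.2 to 953) in barcoded and of 125 (21.9 to 4996) in non-barcoded libraries. *Fgf7* had the largest change of the genes that passed the test, with a fitted log2 change of 7.78 (SE 0.50, edgeR adjusted p = 0.000579).

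Within transgenic mice, members held more *Fgf7* than the other cells of the same mouse. The level outside the members was 53.3 CPM in the barcoded and 40.9 CPM in the non-barcoded transgenic unit, against 131 and 99.5 CPM in members. The change of *Fgf7* between genotypes was 2.67 larger in members than in other cells on the log2 scale, which did not pass the test (edgeR adjusted p = 0.176). The promoter of the transgene is that of *Foxn1*, whose level by *Psmb11* is given further on.

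The receptor *Fgfr2* was at 87.0, 86.0 and 79.9 CPM in wild-type barcoded members and 179 CPM in transgenic ones, and at 75.9 and 30.4 CPM against 161 CPM in non-barcoded members. Transgenic units were the highest in both protocols, as they were for 18.1% of all genes. The log2 change of *Fgfr2* of 1.29 (SE 0.27) did not pass over all 7 units (edgeR adjusted p = 0.0603). Without the Biological Replicate libraries the log2 change of *Fgfr2* was 1.11 and passed (edgeR adjusted p = 0.0110). *Map2k1*, the kinase MEK1 that activates ERK, rose from 112, 158.7 and 128 CPM to 300.9 CPM and from 80.4 and 63.6 CPM to 213 CPM, a log2 change of 1.36 (SE 0.21, edgeR adjusted p = 0.0394). It was the only gene that passed among 15 tested FGF receptors, adaptors and kinases, of which 13 had a positive change (median log2 change 0.43, against -0.02 over all genes, of which 0.249% rose and 0.171% fell). Of 6 tested FGF ligands, *Fgf7* alone passed over all 7 units, and *Fgf10*, which binds the same receptor form, was at 13.3, 11.2 and 19.7 CPM against 13.2 CPM and at 8.93 and 2.77 CPM against 3.25 CPM, so that the units overlapped. Without the Biological Replicate libraries 1 of 6 ligands rose and 2 fell, against 2.13% and 4.05% of all genes.

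Both ETS factors that passed are direct readouts of FGF signalling in many tissues. *Etv5* (chr16:22381313-22439570) was at 10.7, 15.4 and 8.84 CPM in wild-type barcoded members against 61.05 CPM in transgenic ones, and at 22.3 and 22.1 CPM against 115.8 CPM in non-barcoded members. It rose by 2.43 on the log2 scale (SE 0.23, edgeR adjusted p = 0.00564), with 2.45 in barcoded and 2.39 in non-barcoded libraries. *Etv1* (chr12:38780082-38870483) was at 5.93, 7.69 and 8.84 CPM against 31.6 CPM, and at 11.2 and 16.6 CPM against 76.8 CPM, a log2 change of 2.28 (SE 0.26, edgeR adjusted p = 0.0135). Every transgenic value of these genes lay above every wild-type value of the same protocol, as it did for 18.1% of all genes. *Etv4* was at 2.82, 8.39 and 5.44 CPM against 17.7 CPM, and at 1.12 and 24.9 CPM against 24.9 CPM; its log2 change of 1.64 did not pass over all units (edgeR adjusted p = 0.174), whereas 2.24 without the Biological Replicate libraries did (edgeR adjusted p = 0.0354).

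The 2 promoters below are shown because *Etv1* and *Etv5* are the FGF-ERK target genes of this family that rose, and because each holds a copy of the ETS-type core AGGAAGT, printed in capitals. Both are RefSeq sequences of 300 bases from build GRCm38.p6, 250 bases before to 50 after an annotated start, read 5′ to 3′ on the strand of the gene. The first is chr12:38779832-38780131 on the plus strand and the second chr16:22438319-22438618 on the minus strand.
Etv1 promoter, first annotated start: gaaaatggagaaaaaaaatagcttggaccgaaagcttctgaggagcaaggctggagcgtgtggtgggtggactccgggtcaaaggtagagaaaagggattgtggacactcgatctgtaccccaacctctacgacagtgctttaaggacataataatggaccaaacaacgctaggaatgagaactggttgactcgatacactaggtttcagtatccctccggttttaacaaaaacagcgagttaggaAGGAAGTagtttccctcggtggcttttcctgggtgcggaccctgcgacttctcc
Etv5 promoter, second annotated start: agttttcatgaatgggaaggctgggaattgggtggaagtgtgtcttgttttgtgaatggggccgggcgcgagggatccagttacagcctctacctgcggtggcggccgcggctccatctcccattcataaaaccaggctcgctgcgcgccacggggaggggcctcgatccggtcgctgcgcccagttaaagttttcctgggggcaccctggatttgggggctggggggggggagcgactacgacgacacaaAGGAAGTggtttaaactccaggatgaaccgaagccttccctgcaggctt
The second annotated start of *Etv1* and the first of *Etv5* hold no such match. AGGAAGT, or its reverse ACTTCCT, occurred in 9.35% of 32851 promoters of the reference and in 10.4% of 9962 tested genes that could be matched, in 3 of 26 genes that rose and 2 of 17 that fell. The longer CCGGAAGT, reverse ACTTCCGG, occurred in 3.89% of all promoters and 8.40% of the matched genes tested, and in 0 of 26 and 0 of 17. A match is a description of the letters in these windows, and 3′ counts do not show which start was used.

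*Shisa2*, of a family that retains FGF and Wnt receptors inside the cell, rose from 97.2, 167.8 and 108.1 CPM to 439 CPM and from 196 and 83.0 CPM to 875 CPM (log2 change 2.22, SE 0.33, edgeR adjusted p = 0.0350). With it, *Etv1* and *Etv5*, 3 of 18 tested genes listed as FGF-ERK targets rose and 0 fell, against 0.249% and 0.171% of all genes tested. The list was chosen with earlier results of these data known, so that this count is a description. The targets *Ccnd1* and *Myc* did not pass, with log2 changes of -0.12 and -0.30. The median of these targets was 0.26, -0.00 in barcoded and 1.07 in non-barcoded libraries.

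Of 17 tested feedback inhibitors, 0 passed in the test over all units, and 12 had a positive change (median log2 change 0.41); the list had 5 members at an unadjusted p under 0.05, 4 of them higher, which is near the 22.3% of all genes at that limit. *Spry1* was at 25.7, 37.05 and 28.9 CPM against 98.7 CPM, and at 37.96 and 2.77 CPM against 93.05 CPM, with a log2 change of 1.81 (SE 0.39, edgeR adjusted p = 0.0604, and 0.00639 without the Biological Replicate libraries). *Spry4* was at 2.26, 5.59 and 1.36 CPM against 11.5 CPM and at 4.47 and 0 CPM against 9.74 CPM (log2 change 1.95, edgeR adjusted p = 0.136). *Dusp6*, a phosphatase of ERK, was at 37.6, 32.9 and 20.1 CPM against 50.9 CPM and at 25.7 and 0 CPM against 72.5 CPM (log2 change 1.31, edgeR adjusted p = 0.183). All of these had their highest values in transgenic members in both protocols, as did 18.1% of all genes. *Spry2* was less apart, with a log2 change of 0.41, and *Dusp4* and *Dusp5* had log2 changes of -1.67 and -1.09 that did not pass (edgeR adjusted p = 0.0887 and 0.299). With the Biological Replicate libraries left out, 2 of the 17 rose, *Spry1* among them, and 1 fell, *Dusp4* (log2 change -1.46, edgeR adjusted p = 0.0394). Of all genes 2.13% rose and 4.05% fell in that fit. DESeq2 put *Fgfr2*, *Spry1* and *Dusp4* past the threshold, in the same directions (adjusted p = 0.00106, 0.00484 and 0.0161).

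**Figure D2:**
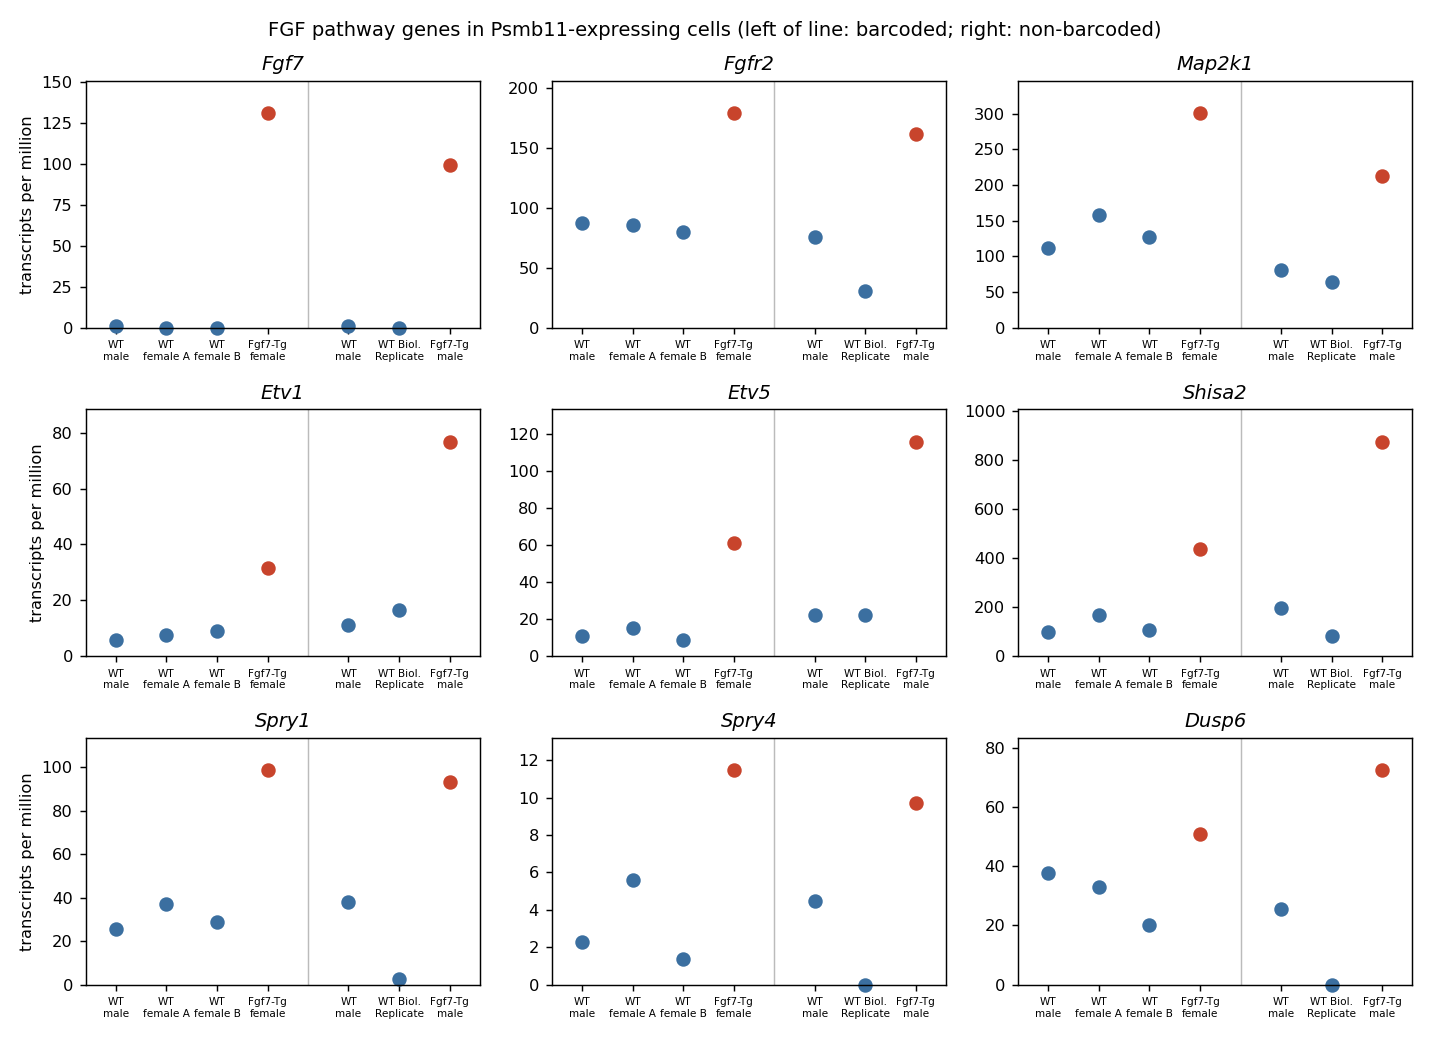
Level (CPM, linear axes from 0) of 9 FGF pathway genes in the summed members of each unit; 1 point is 1 mouse or labelled set of libraries, blue wild type and red *Foxn1-Fgf7*. The panels were chosen with the values known; *Fgf10*, *Etv4*, *Dusp4*, *Dusp5*, *Ccnd1* and *Myc*, which overlapped or were lower in transgenic members in 1 or both protocols, are not drawn. In each panel and protocol the red point is above all blue points, from *Fgf7* (131 and 99.5 CPM) to *Spry4* (11.5 and 9.74 CPM). This order held in both protocols for 18.1% of all genes. *Fgf7*, *Map2k1*, *Etv1*, *Etv5* and *Shisa2* passed the test.

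Over all 14032 genes tested with the protocol as a term, 59 passed an adjusted p of 0.05 (0.420% of genes), of which 35 were higher (0.249%) and 24 lower (0.171%) in transgenic members; 3126 genes (22.3%) had an unadjusted p under 0.05. The units of the 2 genotypes did not overlap in either protocol for all 59, and the same held in 1 direction for 37.1% of all genes; within barcoded libraries alone 61.2% and within non-barcoded ones 69.2% of genes did not overlap. The number of calls depended on which units took part. Leaving out the Biological Replicate libraries gave 896 genes (6.19%; 2.13% higher, 4.05% lower), and leaving out the non-barcoded wild-type male 800. It was 30, 6 and 1 without the wild-type barcoded male, female A and female B, 3 without the non-barcoded and 0 without the barcoded transgenic unit. DESeq2 called 1362 genes (9.71%; 2.08% higher, 7.63% lower). With *Psmb11* at 5 or more per 10,000, 432 genes passed (3.52%, with 1.07% higher and 2.44% lower), 54 of the 59 among them. That fit also lacked the Biological Replicate libraries, whose 11 cells were under the limit of 20 members per unit. Its counterpart among all members is therefore the fit with 896 genes. In each of these fits the 59 genes kept their direction, and all 59 were among those called by DESeq2 and by the fit without the Biological Replicate libraries. With predicted genes left out, 491 of 13881 genes passed (3.54%; 1.34% higher, 2.20% lower), and of the 59 genes 55 were tested, 50 passed and 0 turned direction. Fewer of the 59 passed in other settings, with 12 at 2 or more *Psmb11* transcripts per cell, 25 with labelled sex added and 3 without the protocol term. *Map2k1* and *Shisa2* did not pass in the first (edgeR adjusted p = 0.0902 for each) or the second of these (0.0585 and 0.05096), whereas *Fgf7*, *Etv1* and *Etv5* did. The labelled sex takes the Biological Replicate libraries as male. With sex added and these libraries taken as female, a choice made after seeing the data, all 59 passed. In that fit 7.79% of all genes passed. *Fgf7* was called without any one wild-type unit or the non-barcoded transgenic unit, and *Etv5*, *Gfra4*, *Chga* and *Ttn* were among the genes also called without female A.

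In the contrast of barcoded units 3 genes (0.0214%) passed, *Fgf7* and *Gfra4* higher (0.0143%) and *Chga* lower (0.00713%). In that of non-barcoded units 0 (0.00%) passed. At an unadjusted p under 0.05 were 10.2% and 15.7% of genes, and DESeq2 called 88 and 242. Both contrasts came from the same fit of all 7 units, with a shared filter, scaling and estimate of spread. The calls in each protocol thus also depend on units of the other. No gene passed a test of the difference between protocols (0 of 14032; 3.58% at an unadjusted p under 0.05, and 3 genes with DESeq2). The 2 protocols share no samples. Their log2 changes had the same sign in 72.7% of all genes (Pearson's r = 0.505, Spearman's rho = 0.594), and in 76.8% of the 3639 genes at a mean of 50 CPM or more (r = 0.678, rho = 0.636). These are descriptions across genes, which are not independent.

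**Figure D3:**
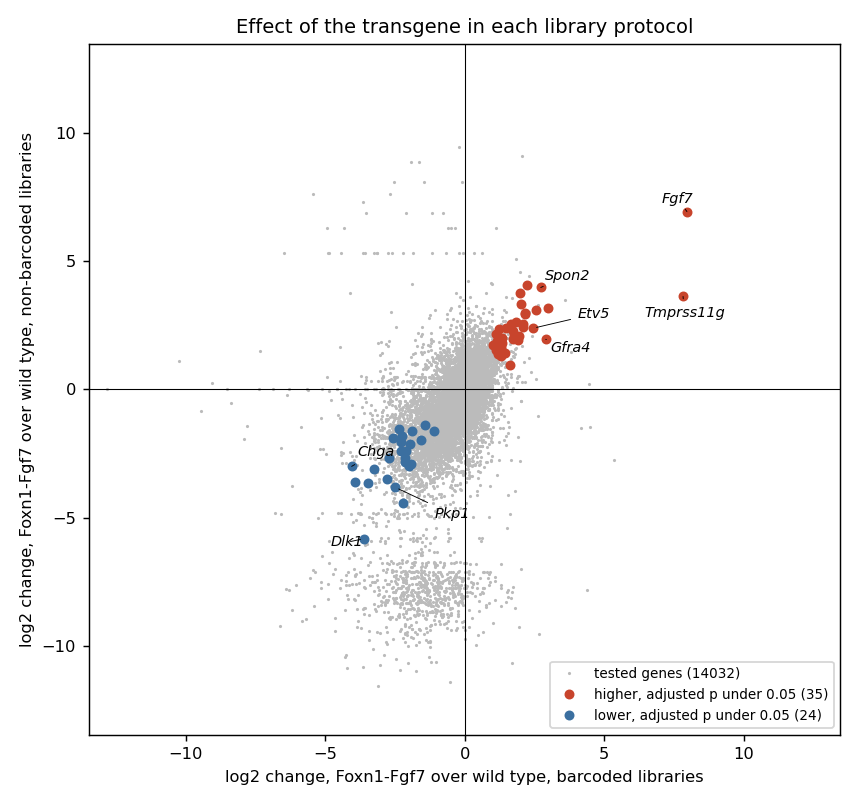
Log2 change of *Foxn1-Fgf7* over wild type in members of the barcoded (horizontal) and non-barcoded (vertical) libraries, 1 point per gene. Of 14032 genes (grey), the 35 that rose (red) are at upper right and the 24 that fell (blue) at lower left; the grey rows and the cloud at the bottom are genes with few or no transcripts in a unit, and *Fgf7* stands farthest out among the genes that rose, at 7.97 and 6.93.

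The genes that rose included the secreted proteins *Spon2*, *Serpinf1* and *Sparc*, of which the first and second were among the 10 of largest rise. *Spon2*, a matrix protein of the spondin family, was at 35.6, 48.2 and 39.8 CPM against 266.3 CPM and at 24.6 and 0 CPM against 247 CPM (log2 change 3.22, SE 0.43, edgeR adjusted p = 0.0213). *Serpinf1*, which encodes the secreted factor PEDF, went from 38.7, 41.9 and 42.5 CPM to 182 CPM and from 52.5 and 5.53 CPM to 256 CPM (log2 change 2.499, edgeR adjusted p = 0.0394). *Sparc*, a matricellular protein, rose from 348.8, 366.3 and 280.8 CPM to 812 CPM and from 248.97 and 215.7 CPM to 576.7 CPM, by 1.32 on the log2 scale in both protocols (edgeR adjusted p = 0.0350). *Spon2* and *Sparc* were the 2 genes that passed among 33 tested matrix and secreted genes, where 0.249% of all genes rose. Of the 33, 23 had a positive change (median log2 change 0.28, with 0.59 in barcoded and 0.08 in non-barcoded libraries). Without the Biological Replicate libraries 7 of 34 rose and 0 fell, against 2.13% and 4.05% of all genes. *Mmp9*, a gelatinase named here after its values were seen, rose from 118, 127 and 84.7 CPM to 463 CPM and from 131 and 52.5 CPM to 515 CPM (log2 change 2.25).

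*Gfra4* (chr2:131039632-131043088), a co-receptor of the GDNF family, was at 28.2, 39.8 and 29.6 CPM against 237.4 CPM and at 36.8 and 30.4 CPM against 132 CPM, a log2 change of 2.55 (SE 0.24, edgeR adjusted p = 0.00564). Its wild-type values were close together, and both transgenic values lay far above them. Transgenic units were the highest in both protocols for 18.1% of all genes. Also among the 10 genes of largest rise were the serine protease *Tmprss11g* (5.16), the endopeptidase *Phex* (2.83), the zinc finger gene *Zfp697* (2.73), the lipase *Pla2g7* (2.55) and the Rap regulator *Sipa1l2* (2.505), with log2 changes in parentheses. *Tmprss11g* was counted 0 times in all 3 wild-type barcoded units, and its levels of 7.30 and 20.6 CPM in transgenic units were low. Named after their values were seen, the detoxifying enzymes *Nqo1* and *Gsta4* rose by 1.64 and 1.45 on the log2 scale, the potassium channel *Kcnn3* by 2.01 and the angiomotin-like *Amotl1* by 1.92. Of the 35 genes that rose, 25 belonged to none of the lists used here.

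The genes that fell included markers of other thymic cell types. *Chga* (chr12:102554941-102565027), the granule protein chromogranin A of neuroendocrine cells, was at 53.7, 49.6 and 49.98 CPM in wild-type barcoded members against 3.01 CPM in transgenic ones, and at 58.1 and 85.7 CPM against 8.66 CPM, a log2 change of -3.74 (SE 0.35, edgeR adjusted p = 0.00564). *Pth*, the parathyroid hormone, was at 90.1, 54.5 and 44.5 CPM against 0.058 CPM and at 17.9 and 0 CPM against 6.49 CPM, and did not pass (edgeR adjusted p = 0.0848). *Avil*, an actin-binding protein of tuft cells, fell from 14.1, 26.6 and 26.2 CPM to 1.39 CPM and from 52.5 and 257 CPM to 11.9 CPM (log2 change -3.79, edgeR adjusted p = 0.0453). The tuft cell cation channel *Trpm5* followed the same order without passing (log2 change -4.18, edgeR adjusted p = 0.0528). Of 10 tested tuft markers, 9 had a negative change (median log2 change -3.39). The listed tuft markers summed in members to 136.4, 213 and 191.5 CPM against 49.8 CPM, and to 229 and 1264 CPM against 60.6 CPM. In the other cells they summed to 224.5, 412.7 and 283.6 CPM against 135.9 CPM, and to 1277.9 and 955.7 CPM against 295.8 CPM. The transgenic unit of each protocol thus had the lowest tuft sum outside the members too. Tuft marker cells among the members numbered 12, 6 and 14 against 5 in barcoded units, and 11 and 8 against 4 in the others. Parathyroid transcripts outside the members differed between units as well. The 5 listed parathyroid markers, *Chga* among them, summed in the other cells to 1047, 856 and 810 CPM in wild-type barcoded mice against 24.96 CPM in the transgenic one, and to 1018 and 312.9 CPM against 664.6 CPM in non-barcoded libraries, with *Pth* at 622.8, 455.1 and 410.2 CPM against 0 CPM and at 452.5 and 0 CPM against 275.7 CPM. In barcoded units this sum and *Chga* in members were both lowest in the transgenic mouse, while among non-barcoded units the Biological Replicate libraries had the lowest sum outside and the highest *Chga* in members. Of 7 tested myeloid markers, 6 had a negative change (median log2 change -2.04) and 0 passed. The 12 listed myeloid markers summed in members to 124.3, 185.3 and 171.1 CPM against 44.3 CPM, and to 49.1 and 66.4 CPM against 33.5 CPM. The part that tuft, parathyroid or myeloid cells, or their free RNA, have in the members' values was not tested.

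Among the other genes that fell were *Krt14*, *Pkp1* and *Clca3a1*. Of 29 tested keratins and junction genes 1 fell and 0 rose, with 15 positive changes (median log2 change 0.08), and without the Biological Replicate libraries 4 rose and 5 fell, against 2.13% and 4.05% of all genes. *Krt14*, a basal keratin, was at 265.5, 298.5 and 288 CPM against 130 CPM and at 240 and 218.5 CPM against 73.6 CPM (log2 change -1.32, SE 0.22, edgeR adjusted p = 0.0453). *Pkp1*, a desmosome protein, was at 82.8, 89.5 and 73.8 CPM against 14.4 CPM and at 66.99 and 55.3 CPM against 4.33 CPM (log2 change -2.75, edgeR adjusted p = 0.0135). *Clca3a1*, of the chloride channel accessory family, was at 107.6, 147 and 151 CPM against 33.8 CPM and at 127 and 171.5 CPM against 33.5 CPM (log2 change -2.03, edgeR adjusted p = 0.0135). Wild-type values of these genes lay close together, and the transgenic values of each protocol lay below all of them. The skin protease *Asprv1* (log2 change -2.34), the interleukin-1 receptor antagonist *Il1rn* (-2.70), the interferon-induced *Ifitm1* (-2.57), the titin gene *Ttn* (-2.33), the transcription factor *Tfap2b* (-2.94), the hormone-binding protein *Crhbp* (-3.49) and the imprinted *Dlk1* (-4.00) fell as well. Of 27 tested medullary markers, 2 fell (*Krt14* and *Avil*; 0.171% of all genes fell) and 25 had a negative change (median log2 change -1.76), but the summed level of the list was 5176, 8350 and 6470 CPM against 7035 CPM and 4001 and 6929 CPM against 5980 CPM, so that the transgenic units lay within the wild-type range. Without the Biological Replicate libraries 11 of 26 fell and 1 rose, against 4.05% and 2.13% of all genes. *Igf1*, a growth factor with which TECs can signal to neighbours, was at 112.7, 155.2 and 152.7 CPM against 15.6 CPM and at 22.3 and 218.5 CPM against 11.9 CPM (log2 change -3.15, edgeR adjusted p = 0.0652), and passed without these libraries (log2 change -2.72, edgeR adjusted p = 0.0136).

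Genes of cTEC function did not pass the test between genotypes in members (0 of 21 tested without *Psmb11*; 4 at an unadjusted p under 0.05, against 22.3% of all genes; median log2 change 0.34, with 15 positive). Without the Biological Replicate libraries 2 of 21 rose and 1 fell, against 2.13% and 4.05% of all genes. *Prss16*, a thymus-specific serine protease, was at 4661, 4264 and 4970 CPM against 6085 CPM and at 3580 and 844 CPM against 4858 CPM, with a log2 change of 0.77 (SE 0.44, edgeR adjusted p = 0.325). *Ctsl*, the cathepsin that trims class II ligands in the cortex, was at 8003, 6756 and 6428 CPM against 8985 CPM and at 4491 and 949 CPM against 4664 CPM (log2 change 0.57, edgeR adjusted p = 0.487). The transgenic values were the highest of their protocol, as they were for 18.1% of all genes. In non-barcoded libraries, however, the wild-type male was close to the transgenic cells and the Biological Replicate libraries were far below.

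The chemokine *Cxcl12* was at 1313, 1386 and 1270 CPM against 1932 CPM and at 1038 and 96.8 CPM against 2016 CPM (log2 change 1.20, edgeR adjusted p = 0.291); without the Biological Replicate libraries its log2 change of 0.73 passed (edgeR adjusted p = 0.0304). *Il7*, a survival factor of early thymocytes, had a log2 change of 0.79 (edgeR adjusted p = 0.222). *Ccl25* (log2 change -0.14), *Cd83* (-0.18) and *Foxn1* (0.14) had changes smaller than their standard errors (0.21, 0.70 and 0.33). *Foxn1* was at 268.02, 268.4 and 273 CPM against 339 CPM and at 371 and 135.5 CPM against 233.7 CPM.

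**Figure D4:**
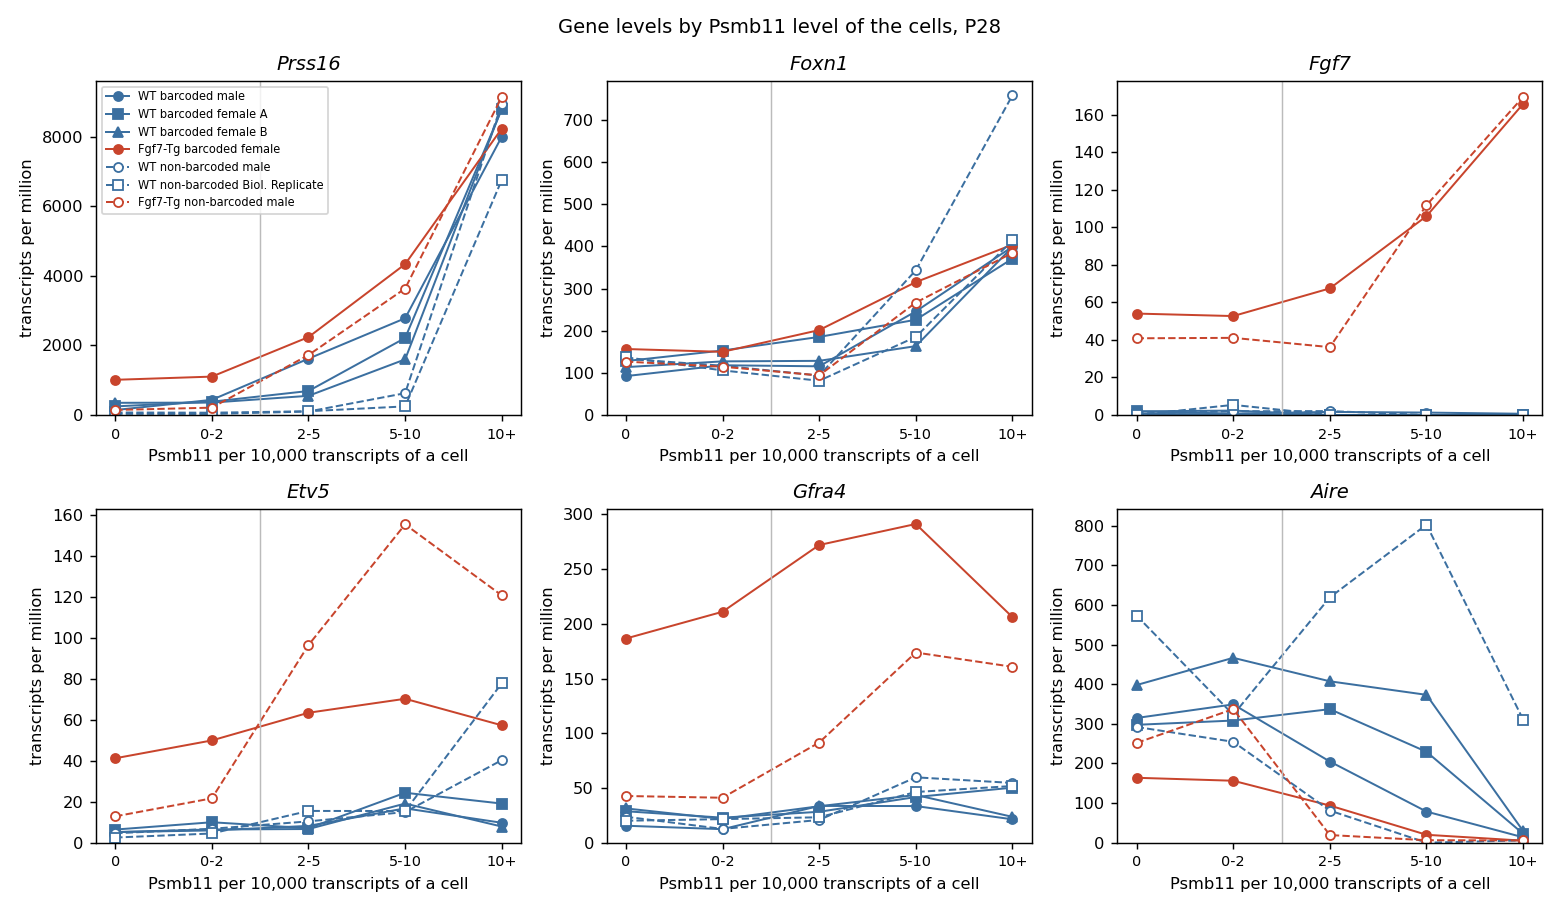
Level (CPM) of 6 genes in P28 cells grouped by the *Psmb11* level of the cell (per 10,000 transcripts); filled symbols are barcoded and open symbols non-barcoded units, blue wild type and red *Foxn1-Fgf7*, and cells right of the grey line are members. *Prss16* meets at 6761 to 9152 CPM in the bin of 10 or more, while *Gfra4* and, among barcoded units, *Etv5* of transgenic cells lie above wild type in every bin.

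The members of a unit ranged widely in how cortical they were, as the plot by *Psmb11* level shows. In the wild-type barcoded male *Prss16* was at 1620 CPM in the 196 cells with *Psmb11* at 2 to 5 per 10,000, at 2783 CPM in the 164 cells at 5 to 10 and at 8007 CPM in the 135 cells at 10 or more. In the transgenic barcoded female it went from 2241 CPM in the lowest member bin through 4339 CPM (381 cells) to 8240 CPM (746 cells). At 10 or more per 10,000 *Prss16* was at 8007, 8795 and 8826 CPM in the wild-type barcoded mice and 8240 CPM in the transgenic one, and at 8959, 6761 and 9152 CPM in the non-barcoded units. *Aire*, a regulator of medullary cells, was in these cells at 13.6, 22.5 and 29.5 CPM against 5.11 CPM in barcoded mice, and at 5.75 CPM in the non-barcoded wild-type male, at 311 CPM in the Biological Replicate libraries (5 cells) and at 5.74 CPM in transgenic cells. Members at 2 to 5 per 10,000 had *Aire* at 204.9, 337 and 407.4 CPM in wild-type barcoded mice and 93.7 CPM in the transgenic one. Because *Psmb11* set the bins, these courses are descriptions.

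*Fgf7* in transgenic cells was highest in the bin of 10 or more. In the barcoded female it went from 54.01 CPM in cells without *Psmb11* to 67.4, 105.9 and 166 CPM in the member bins. In the non-barcoded cells it went from 40.8 CPM to 36.1, 112 and 169.4 CPM (23 cells in the last bin). There the first member bin was not above the cells without *Psmb11*. At 10 or more per 10,000, 68.2% and 82.6% of the transgenic cells had an *Fgf7* transcript. *Foxn1* went from 156.6 to 404.1 CPM and from 127 to 384.7 CPM over the same bins, and from 92.3 to 399 CPM in the wild-type barcoded male. *Etv5* did not follow this course in the barcoded transgenic female (41.2 CPM without *Psmb11*, then 63.4, 70.2 and 57.2 CPM in the member bins), and neither did *Gfra4* (186.6 CPM, then 272, 291 and 206.2 CPM).

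When only cells with *Psmb11* at 10 or more per 10,000 were compared, which left barcoded units only because 2 of 3 non-barcoded ones had under 20 cells, 57 of 11948 genes passed (0.477%), 22 higher (0.184%) and 35 lower (0.293%). The transgenic arm of this comparison is 1 mouse. The non-barcoded transgenic unit (23 cells) stayed in the filter, scaling and fit. It had no wild-type unit of its protocol to be compared with, so the protocol term took up its level. In the simulation of all members 29.8% of calls within barcoded libraries were false, and the fit of these cells was not simulated. Of the 59 genes above, 57 were tested and 20 passed, with 0 in the other direction. The 22 that rose included all 3 tested erythroid markers (*Hba-a1*, *Hbb-bs* and *Hbb-bt*, median log2 change 3.76) and 1 of 4 tested fibroblast markers, and the part of red cell or fibroblast RNA in these values was not tested. *Etv5* (log2 change 2.39, edgeR adjusted p = 0.0248), *Gfra4* (2.82, adjusted p = 0.0112), *Spon2* (2.36, adjusted p = 0.00937), *Serpinf1* (1.63, adjusted p = 0.0133) and *Sparc* (1.21, adjusted p = 0.0248) were among those that rose, and *Chga* (-4.66, adjusted p = 0.0112), *Pkp1* (-2.93, adjusted p = 0.00914) and *Asprv1* (-2.22, adjusted p = 0.0286) among those that fell. *Map2k1* (0.79, adjusted p = 0.202), *Etv1* (2.00003, adjusted p = 0.151) and *Shisa2* (1.17, adjusted p = 0.179) did not pass here, and of 17 tested FGF-ERK targets 1 rose, with a median of -0.29. *Prss16*, *Ctsl* and *Cxcl12* had log2 changes of -0.07, -0.06 and -0.11 (adjusted p = 0.925, 0.939 and 0.920), and 0 of 21 genes of cTEC function passed, with a median of -0.11. *Krt14* (-0.95, adjusted p = 0.170), *Clca3a1* (-1.30, adjusted p = 0.223) and *Avil* (-2.19, adjusted p = 0.380) did not pass here and had negative changes.

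Thymocyte transcripts had lower levels in the transgenic unit of each protocol, without passing the test. All 22 tested thymocyte markers had a negative change (median log2 change -1.64) and 0 passed, with 17 at an unadjusted p under 0.05, and 7 fell without the Biological Replicate libraries, against 4.05% of all genes. The summed level of the list was 3885, 1603 and 3875 CPM against 1187 CPM in barcoded members and 701.5 and 215.8 CPM against 85.5 CPM in non-barcoded ones. The median depth of members was 10277 transcripts in the transgenic barcoded female and 4591 to 5187 in the wild-type barcoded mice. Members with 3 or more thymocyte transcripts, a count that depends on depth, were 35.2%, 16.6% and 51.4% against 40.4%, and 12.6% and 10.9% against 2.08%. Without such cells 811 of 12204 genes passed (6.65%; 1.34% higher, 5.31% lower), and all 59 genes were among them. S phase genes had a median log2 change of -0.72, with 27 of 28 negative and 0 past the test (7 at an unadjusted p under 0.05, against 22.3% of all genes), but the median was 0.43 once cells with thymocyte transcripts were left out (15 of 21 positive, 0 past the test). All 28 were negative and 3 fell without the Biological Replicate libraries, and at *Psmb11* of 10 or more per 10,000 all 28 were negative (median -1.45) and 0 passed. G2/M genes had medians of -0.66 in barcoded and 1.38 in non-barcoded libraries, and 0 of 29 passed, while at 10 or more per 10,000 all 28 tested were negative (median -1.71) and 2 fell, against 0.293% of all genes.

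The study's set of early progenitor genes, which it had chosen by comparing clusters of wild-type P28 cells and which is therefore not independent of the wild-type units used here, had 129 genes tested, of which 5 rose, 0 fell and 28 had a negative change (median log2 change 0.69), where 0.249% of all genes rose and 0.171% fell. The 5 were *Spon2*, *Sparc*, *Serpinf1*, *Shisa2* and *Amotl1*. Without the Biological Replicate libraries 37 rose and 4 fell, against 2.13% and 4.05% of all genes, so that the count that fell was near that of all genes. In the cells of 10 or more per 10,000 4 rose and 1 fell, against 0.184% and 0.293%, with a median of 0.21. The study's 53 postnatal progenitor genes had a median of 0.01, with 0 higher and 2 lower (*Krt14* and *Clca3a1*). *Gpx3*, a secreted peroxidase of that set, was at 206.2, 273 and 235.97 CPM against 76.6 CPM and at 71.5 and 99.6 CPM against 6.49 CPM (log2 change -2.12, edgeR adjusted p = 0.0539).

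Other programmes showed few or no calls in members in the test over all units. Of 27 genes of antigen presentation 1 rose and 0 fell, where 0.249% of all genes rose and 0.171% fell. The gene that rose was the lysosomal protease *Lgmn*, from 13.6, 16.1 and 12.9 CPM to 34.7 CPM and from 10.05 and 11.1 CPM to 36.8 CPM (log2 change 1.497, edgeR adjusted p = 0.0462). *Psmb8*, a subunit of the immunoproteasome, was at 227, 226 and 281.5 CPM against 101.3 CPM and at 127 and 227 CPM against 48.7 CPM (log2 change -1.48, edgeR adjusted p = 0.0548). In the lists of thymic epithelial transcription factors (19 tested), interferon response (26), cycle brakes (26), stress response (24), ribosome biogenesis (25), cholesterol synthesis (23) and glycolysis (17), 0 genes passed, and the medians lay between -0.09 and 0.44. Without the Biological Replicate libraries, where 2.13% of all genes rose and 4.05% fell, 3 of 19 transcription factors rose and 1 fell. In that fit 3 of 26 cycle brakes and 1 of 25 genes of ribosome biogenesis fell, and 0 genes of the other 4 lists passed. Of the 27 genes of antigen presentation, 1 rose and 4 fell there. Without cells with thymocyte transcripts 1 of these 27 rose and 5 fell, against 1.34% and 5.31% of all genes. In the self-test on simulated counts, edgeR recovered 66.7% of genes changed by 2 on the log2 scale and 16.7% of those changed by 1. Small changes were thus mostly not detectable even in that simulation, which held no difference between protocols. Markers of red cells were at 2913 CPM in wild-type female A and 2111 CPM in the transgenic barcoded female, against 8.66 to 128 CPM elsewhere. *Dpt*, a fibroblast matrix gene, was at 0.699 to 3.11 CPM in wild-type barcoded members and 45.5 CPM in transgenic ones, but at 5.58 and 0 CPM against 4.33 CPM in non-barcoded members. The part of free RNA in these values was not tested.

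**Figure D5:**
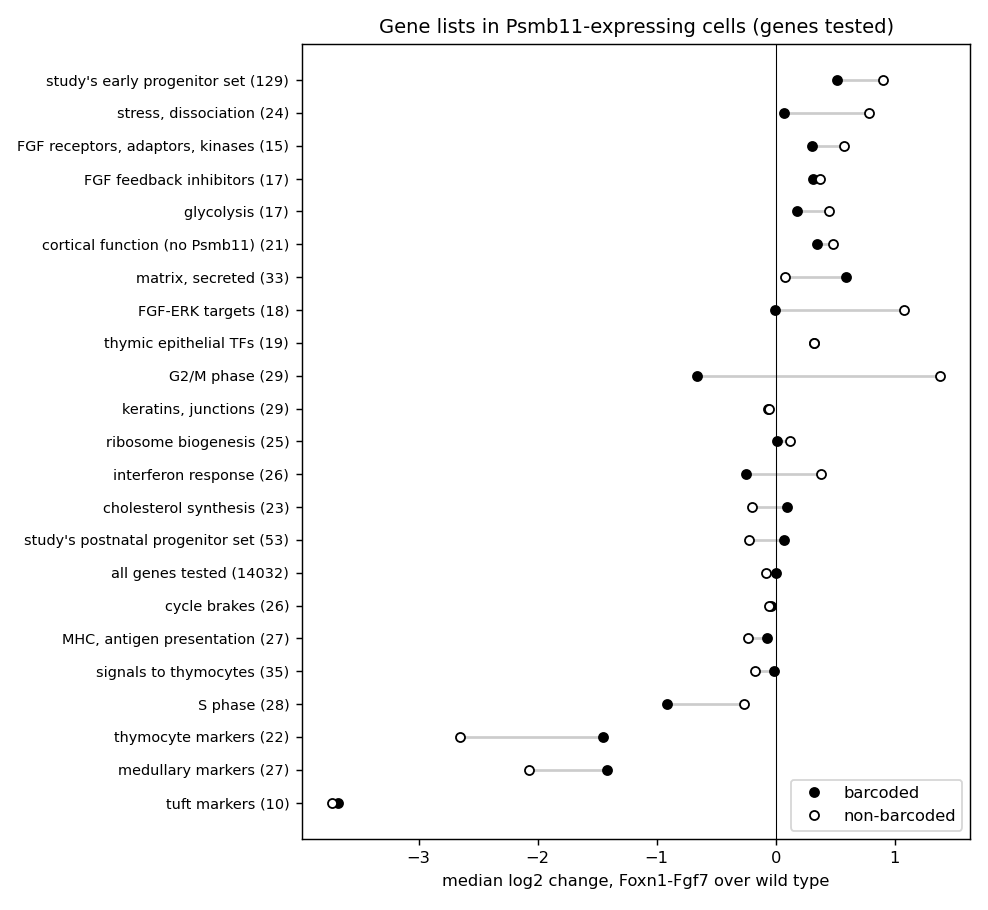
Median log2 change of *Foxn1-Fgf7* over wild type in members for 22 gene lists and for all genes tested, in barcoded (filled) and non-barcoded (open) libraries; the number of genes tested is in parentheses. Tuft, medullary and thymocyte markers lie below all genes in both protocols, and G2/M genes have medians of -0.66 and 1.38.

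Whether the transgene acted differently in members than in the remaining cells of the same mice was tested across 20727 genes. Of these, 37 passed (0.179%), all with a lower change in members, and 1690 (8.15%) had an unadjusted p under 0.05. Of the 37, 35 carry predicted gene names (Gm, Rik or clone names) and the others are *Flg* and *Grk4*. *Gm10800* is one of them, at 212295, 208818 and 192343 CPM in the members of the non-barcoded units. The study left genes with Gm names out of its clustering. With predicted genes left out of the table and of the threshold, 0 of 16960 genes passed (1734 at an unadjusted p under 0.05). The 5 of smallest p were *Gm21750* (difference of log2 changes -1.83), *Gm42519* (-2.04), *Gm10660* (-1.71), *Gm26917* (-1.51) and *Gm37954* (-1.73), each with an edgeR adjusted p of 0.0235. *Gm37954* was at 1009, 513 and 529.4 CPM in wild-type barcoded members and 245 CPM in transgenic ones, but at 698.2, 212 and 438 CPM and 604 CPM in the other cells. None of the FGF, cTEC or medullary genes listed here passed this test. It does not hold the makeup of the other cells fixed, and 0 genes passed without either transgenic unit.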

How the data were processed

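Single-cell transcriptomes of P28 TECs from 216 unsorted libraries were used. The authors deposited, per library, expected counts (transcripts estimated from molecular barcodes), not normalized, with 1 column per cell. They had aligned CEL-Seq2 reads with BWA (version 0.6.2-r126, after bcl2fastq 2.17.1.14) to mouse ENCODE VM9 gene models and spike-ins, kept sense reads, and converted molecular barcodes to transcripts by binomial statistics. Multiply mapped reads had been discarded, so near-identical genes are undercounted. Of the 192 columns of a table, the first or the last 96, whichever held more transcripts, were read (median 97.5%, lowest 58.9% of transcripts, and 1 P28 library under 80%).

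Member cells were summed per unit, rounded, and tested with edgeR (version 4.0.16, R 4.3.3; filterByExpr, TMM, quasi-likelihood test, Benjamini-Hochberg adjustment over all genes tested, threshold 0.05), with the protocol as a term, within protocols as contrasts of 4 means, and against other cells with the unit as a block. SEs derive from the test statistics. DESeq2 (version 1.42.0) was an alternative. Shares carry exact 95% binomial intervals and count ratios exact intervals, which cover counting error only. Doublets were not called; of the kept cells, 0 exceeded 2% *Kcnq1ot1*. The 57 spike-ins, 26 mitochondrial genes and *Hprt* were left out, and *Psmb11* was not tested.

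On simulated counts (13104 genes), 6.10% of calls over both protocols were false, 29.8% within barcoded and 14.3% within non-barcoded libraries. Apart from the set changes, the simulation gave a gene the same mean in all units. It thus held no difference between protocols and no deviating unit, and it was not repeated. These shares therefore do not measure the false calls among the real genes.

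The members, gene lists and tests were chosen with earlier results of these data known. Named genes are fixed FGF and cTEC genes, the 10 of largest change in each direction that separated all units in both protocols, up to 4 genes of smallest p per further list, and 5 for the comparison with other cells; 1 gene that the rule names is not reported here. Alternatives were other *Psmb11* and depth limits, thinning (random seed 7), molecular barcodes, other scaling and filters, predicted genes left out, sex and units left out. Lineage barcodes and sorted libraries were not analysed here. Python 3.11.15 was used for tables.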

Additional observations from a re-analysis of the deposited data

Results flagged for a closer look

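Of 47 values compared over the 5 wild-type units, 5 had a unit farther from the rest than Dixon's 95% limit for 5 samples, and chance flags about 1 in 20. In each case it was the Biological Replicate libraries. *Fgfr2* (30.4 CPM) and *Cxcl12* (96.8 CPM) were lowest there, and *Dusp4* (38.7 CPM), *Avil* (257 CPM) and *Chga* (85.7 CPM) highest.

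The change with the transgene differed between members and other cells of the same mice in 37 genes, all with a lower change in members, and in 0 genes with predicted genes left out. The largest evidence was for *Gm21750* (difference of log2 changes -1.83), *Gm42519* (-2.04), *Gm10660* (-1.71), *Gm26917* (-1.51) and *Gm37954* (-1.73).

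Outside the P28 comparison, members of the 1-year-old transgenic mouse held *Fgf7* at 52.2 CPM (57 transcripts), against 6.44 CPM (8 transcripts) in the 1-year-old wild-type mouse.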

How the results depend on the processing

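No paired analysis was possible because the wild-type and transgenic units share no replicate numbers. Fits at 5 or more per 10,000 lacked the Biological Replicate libraries, whose 11 cells were under the limit of 20 members per unit. Fits at 10 or more lacked these and the non-barcoded wild-type male (16 cells). As settings differ in how many genes they tested, calls are given here in percent of genes tested. Over both protocols (0.420%) it was 3.52% at *Psmb11* of 5 or more per 10,000, 0.107% with 2 or more *Psmb11* transcripts per cell, 6.65% without cells with thymocyte transcripts, 6.64% after thinning, 0.935% with molecular barcodes, 6.19% without the Biological Replicate libraries and 9.75% with them summed with the male, 9.71% with DESeq2, 7.87% without a filter, 3.54% with predicted genes left out (chosen after seeing the data), 0.264% with labelled sex added, 7.79% with those libraries taken as female (chosen after seeing the data) and 0.0214% without the protocol term, and leaving out 1 unit gave 0% to 6.19%. Within barcoded libraries (0.0214%) it was 2.37% at 5 or more, 0.477% at 10 or more, 0.00762% with 2 transcripts, 0.377% without thymocyte transcripts, 4.37% after thinning, 1.99% without the Biological Replicate libraries, 1.97% with them summed, 0.627% with DESeq2, 2.73% without a filter, 0% with labelled sex and 0.962% with those libraries taken as female, and leaving out 1 unit gave 0% to 2.06%. Within non-barcoded libraries (0%) it was 0.057% at 5 or more, 0.283% without the Biological Replicate libraries, 0.664% with them summed, 1.72% with DESeq2, 3.48% without a filter and 0.274% without predicted genes, and leaving out 1 unit gave 0% to 9.47%, the latter without the wild-type male. For the difference between protocols (0%) it was 0.00814% at 5 or more, 0.0214% with DESeq2 and 0.254% without a filter, and leaving out 1 unit gave 0% to 0.0134%. Against other cells (0.179%) it was 2.38% at 5 or more, 2.76% at 10 or more, 0% with 2 transcripts, 0.0921% at 3000 transcripts per cell, 1.23% without thymocyte transcripts, 0.579% after thinning, 0.114% with molecular barcodes, 0.676% without the Biological Replicate libraries, 0.472% with them summed, 0.593% with DESeq2, 0.343% with RLE scaling, 1.35% without a filter, 0% without predicted genes, 0.333% with labelled sex and 2.11% with those libraries taken as female, and leaving out 1 unit gave 0% to 0.676%. The cause was not tested.

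The share of members in transgenic minus wild-type units was 37.1 percentage points in barcoded libraries, and 26.5 at 5 or more, 18.9 at 10 or more and 24.3 after thinning. In non-barcoded libraries it was -2.43, but 0.980 at 5 or more, 0.695 at 10 or more and 2.94 without the Biological Replicate libraries. It stayed negative, with a wider gap, with predicted genes left out (13.6% in transgenic against 17.4% and 27.6% in wild-type units). Of all kept cells, whatever their level per 10,000, 7.49% against 10.3% and 18.4% held 2 or more *Psmb11* transcripts. Such a count depends on depth, with medians of 7055 transcripts against 12834 and 9244. The fit with 2 or more *Psmb11* transcripts per cell also kept the limit per 10,000. It held 59 of 1055 transgenic cells against 62 of 1413 and 32 of 272 wild-type cells. *Hbb-bs* turned from -0.05 to 3.81 and 3.61 on the log2 scale at 5 and 10 or more per 10,000. Against other cells at 10 or more, *Gm21750*, *Gm26917* and *Gm37954* turned to 0.00474, 0.0344 and 0.134. Of 3182 values for 130 named genes, 2486 kept direction and side of the threshold. With 1 transgenic unit per protocol, its own deviation and the transgene cannot be told apart within a protocol.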

Other observations

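At 1 year, libraries labelled wild-type female and libraries labelled transgenic male, each taken as 1 unit, were described with the same rule, without a test. The free-text label calls the latter wild type as well, and the genotype label was used; *Fgf7* was at 6.44 CPM in wild-type and 52.2 CPM in transgenic members. Members were 247 of 1627 wild-type cells (15.2%) and 208 of 3682 transgenic cells (5.65%), with *Psmb11* at 849 and 680 CPM. The order of the 2 genotypes was thus opposite to that in P28 barcoded mice. The sexes differ as well, so that genotype, sex and mouse cannot be told apart.

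Of the genes that rose at P28, *Etv1* was at 9.65 CPM in wild-type and 34.8 CPM in transgenic members at 1 year, and *Gfra4* at 46.7 and 75.95 CPM. *Etv5* was at 9.65 CPM (counting interval 4.99 to 16.9) and 13.7 CPM (7.68 to 22.6), so that the intervals overlapped, and *Sparc* at 512 and 439 CPM. Of the 35 genes that rose at P28, 27 were higher in the transgenic unit at 1 year, and of the 24 that fell, 13 were lower and 11 higher; over all 14030 genes, 6929 were higher and 6958 lower. *Chga* was at 3147 CPM in wild-type members and 221.4 CPM in transgenic ones, beside *Pth* at 5399 and 329.4 CPM, and the part of parathyroid cells or their free RNA was not tested. Of genes that fell at P28, *Crhbp* was higher in the transgenic unit at 1 year (13.7 and 88.8 CPM) and so was *Avil* (0.805 and 10.98 CPM), while *Pkp1* was at 179 and 71.4 CPM, and *Krt14* at 478.7 and 211 CPM.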
